A study of Drosophila melanogaster with 9 samples.

Results

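The 3′ region of the P(lacW) transgene, its last 3529 bp in the deposited coordinates, was followed in 9 ovarian small RNA libraries of Drosophila melanogaster. Its members were all 5′ ends of reads within these bounds on either strand, chosen by coordinate alone. They occupied 2811 strand-positions of the 8843 occupied anywhere on P(lacW). The region makes up 33.0% of the deposited coordinates, which end before the length that the study's methods give for P(lacW), and it is compared where needed with the 5′ part, which contains the lacZ sequence shared with the reporter, and the middle part, which lies between both.

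P(lacW) is a P element vector that is repeated in tandem at the BX2 locus, within an intron of AGO1, in a w1118 background. All flies compared here carry these repeats, and they differ in the epigenetic state of the locus, in the temperature and in the presence of a reporter. In the first experiment 1 library each was made at 25°C from BX2OFF with P(TARGET)GS, in which the repeats do not act as a piRNA cluster, from BX2Θ with P(TARGET)GS, in which heat had switched the repeats on, and from BX2* without P(TARGET)GS, in which maternally inherited piRNAs had done so. P(TARGET)GS is a P-lacZ enhancer trap used as a reporter of germline silencing. The second experiment holds 3 libraries of BX2OFF without the reporter at 25°C and 3 of flies raised for 1 generation at 29°C. The BX2* library comes from an earlier study, so its comparison with BX2Θ is also one of flies without and with the reporter and of separately prepared libraries, and these differences cannot be told apart.

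piRNAs guide the PIWI proteins Piwi, Aub and Ago3 to transposon transcripts in the germline. They are cut from long precursors of heterochromatic clusters that are read from both strands, and reciprocal slicing by Aub and Ago3 leaves sense and antisense partners whose 5′ ends overlap over a fixed stretch, the ping-pong signature. Clusters made of transgenes are used to study how a locus starts to produce piRNAs, since their state can change while their sequence does not.

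In the study's map the elements of P(lacW) run from the P 5′ end through lacZ, an Hsp70 terminator and mini-white, an eye colour marker, to the plasmid backbone pBR322 and the P 3′ end. The shared lacZ stretch lies upstream, and the 3′ region follows it at a distance. The map gives no positions for the downstream borders, so that reads are described by coordinate and not by element. The reporter is also a P element and its map draws a P 3′ end, so any reads of that end are not strictly private to P(lacW). Sequences of white also occur at the endogenous white gene on the X chromosome, and their reads cannot be told apart from those of the transgene in these maps. The paper attributes the white exon reads that rose in BX2Θ over BX2OFF to the P(lacW) repeats. Sense below is the strand of lacZ.

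The 3′ region produced abundant small RNAs from both strands in both active states and few in BX2OFF. It held 252 reads of 18–29 nt in BX2OFF with the reporter, 16359 in BX2Θ and 10173 in BX2*. Scaled to 1000000 miRNA reads, these were 69.6, 4140 and 2628 rpm. The level in BX2Θ was 59.5 times that in BX2OFF, with a 95% counting interval of 52.5 to 67.4, and that in BX2* was 37.8 times that in BX2OFF (33.3 to 42.8). With 1 library per genotype none of these ratios has a replicate check, and the intervals cover counting error only, since reads without molecular identifiers may be PCR copies.

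The gain of reads was unequal between the strands. BX2OFF had 111 sense and 141 antisense reads, BX2Θ 10657 and 5702, and BX2* 5875 and 4298. The sense level was thus 88.0 times higher in BX2Θ than in BX2OFF and the antisense level 37.1 times. In BX2* the corresponding ratios were 49.5 and 28.5. The middle part was alike in this, with 100 and 49.2 in BX2Θ and 67.3 and 35.4 in BX2*. The 5′ part went the other way, with 52.3 and 80.5, and 27.5 and 36.0. The antisense share of the 3′ region was 56.0% in BX2OFF (Wilson 95% interval 49.8 to 61.9), 34.9% in BX2Θ (34.1 to 35.6) and 42.2% in BX2* (41.3 to 43.2), so that the active libraries leaned to the sense strand while the interval of BX2OFF included equal strands.

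The region was a moderate contributor to the P(lacW) signal. It supplied 27.9% of P(lacW) reads in BX2OFF (25.1 to 31.0), 25.4% in BX2Θ (25.0 to 25.7) and 27.3% in BX2* (26.9 to 27.8), each below its 33.0% of the length. The 5′ part, 34.0% of the length, held 42.8%, 42% and 34.5% in the same order. The middle part, as long as the 3′ region to within 1 bp, held 29.3%, 32.7% and 38.2%.

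Reads were spread over much of the region in the active states. In BX2Θ they started at 2311 strand-positions, with 7.08 reads per occupied position and 29.5% of these seen only once. BX2* had 1866 occupied positions at 5.45 reads each, 41.0% of them with 1 read. BX2OFF had 156 positions at 1.62 reads each, 62.8% of them with 1 read. Counted as occupied positions, BX2Θ exceeded BX2OFF 14.8 times and BX2* exceeded it 12.0 times, less than by reads. The 36 bins of 100 bp held a median of 6 reads in BX2OFF, and 1 bin had none.

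**Figure D1:**
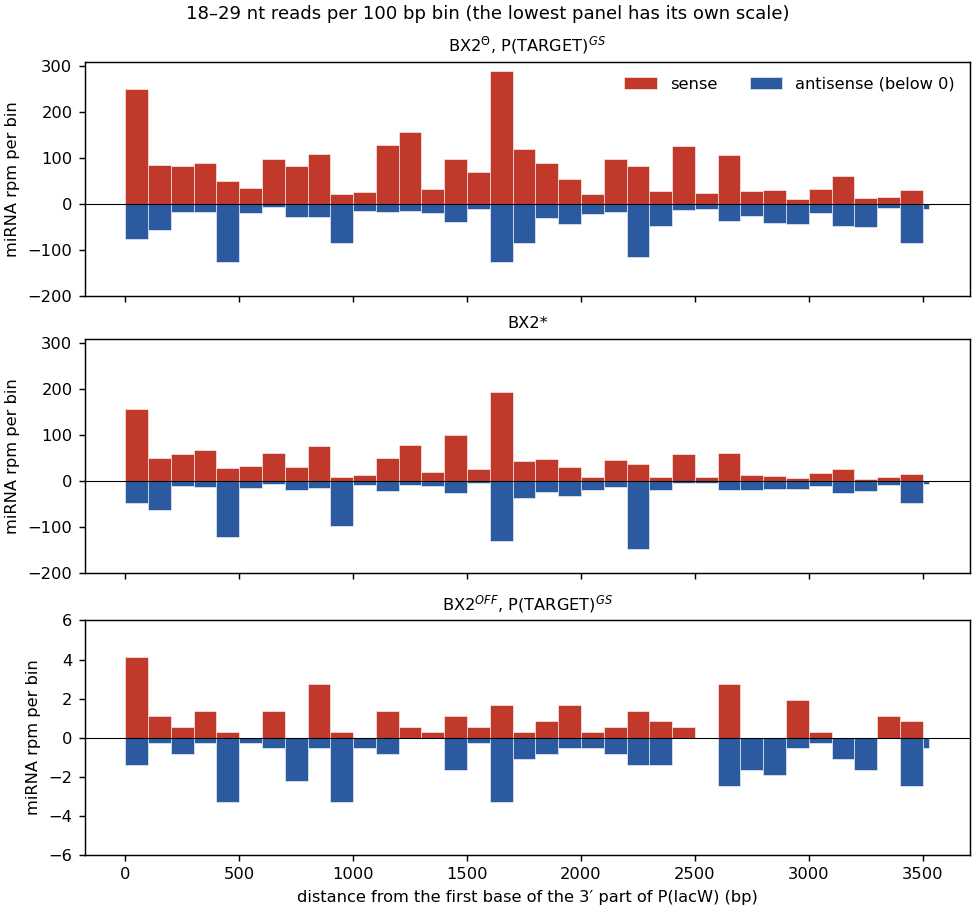
Levels of 18–29 nt reads in miRNA rpm (vertical axes) in bins of 100 bp along the 3′ region (horizontal axis, distance from its first base in bp), sense above and antisense below 0, with 1 library per panel and no error bars for want of replicates; the BX2OFF panel has its own, far smaller scale. The highest sense bin of BX2Θ reaches 290 rpm and that of BX2* 193 rpm, at the same place, 1600 bp from the start.

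The profile along the region was uneven and alike in both active libraries. Over 72 bins (36 per strand) the levels in BX2Θ and BX2* had a Spearman's rho of 0.94 and a Pearson's r of 0.90, as a description of neighbouring bins that share a library and a sequence. Against BX2OFF with the reporter, whose bins hold few reads, rho was 0.51 for BX2Θ and 0.56 for BX2*. The plot of levels per bin shows a sense maximum at 8762–8861, with 290 rpm in BX2Θ and 193 rpm in BX2*. A further sense maximum stood in the first bin of the region, up to 7261, with 250 and 157 rpm. That first bin was also the fullest in BX2OFF, with 20 reads.

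The level was lower towards the end of the region in both active libraries. The stretch 8662–9161 had 920 rpm in BX2Θ and 570 rpm in BX2*. The stretch 9662–10161 had 359 and 180 rpm, and 10162–10661 had 366 and 185 rpm. In BX2OFF these stretches had 11.04, 11.3 and 7.73 rpm, from only 40, 41 and 28 reads.

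Strand preference changed over short distances. In BX2Θ 25 of the 36 bins had a Wilson interval wholly on the sense side, 9 on the antisense side and 2 on neither; over all of P(lacW) the shares of such bins were 53.7% sense and 36.1% antisense. In BX2* the counts were 20, 10 and 6, against 50% and 34.3% over all of P(lacW). The sense lean was not particular to the region. The middle part had 22 sense bins of 35 in each library, and the 5′ part had 11 of 37 in BX2Θ and 12 of 37 in BX2*. Both libraries gave the same call in 29 of the 36 bins, sense in 20 and antisense in 8. The last bin, only 29 bp long and at the end of the coordinates, is among these 8. The bin 7262–7361 alone had opposite calls, with 39.7% antisense in BX2Θ and 55.4% in BX2*.

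**Figure D2:**
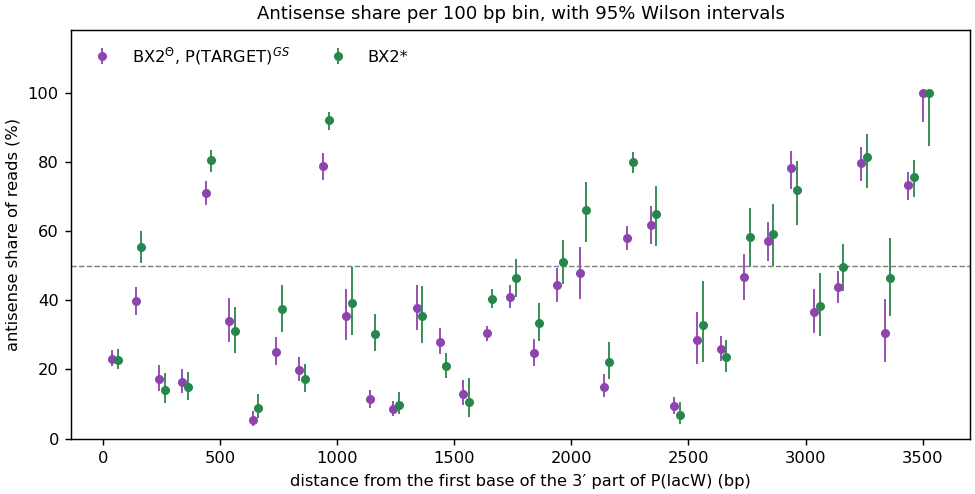
Antisense share of reads in percent (vertical axis) per 100 bp bin along the 3′ region (horizontal axis, distance from its first base in bp) in BX2Θ and BX2*, with 95% Wilson intervals and a dashed line at 50%. The shares run from 5.38% to 100% in BX2Θ and from 6.85% to 100% in BX2*, with the points of both libraries close together in most bins and high shares frequent beyond 2800 bp. The 100% is that of the last bin, 29 bp long, where most sense reads would run past the last coordinate.

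The most one-sided sense bin of BX2Θ was 7762–7861, with 5.38% antisense there and 8.91% in BX2*. That of BX2* was 9562–9661, with 9.37% in BX2Θ and 6.85% in BX2*. Among antisense bins, 8062–8161 reached 78.9% in BX2Θ and 92.0% in BX2*, although both of its neighbours were below 50% in both libraries. Another, 7562–7661, had 71.1% and 80.5%. In the last 29 bp of the deposited coordinates all 42 reads of BX2Θ and all 21 of BX2* were antisense. Most sense reads of 18–29 nt that start there would run past the last coordinate, so this share is not a measure of strand preference.

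Antisense reads prevailed over the last stretch of the region, from position 9962 on, a border chosen after the values had been seen. There the antisense share was 60.5% in BX2Θ (58.3 to 62.6), 62.4% in BX2* (59.3 to 65.5) and 67.4% in BX2OFF (53.0 to 79.1, 46 reads). Upstream of it the shares were 31.3%, 40.2% and 53.4%. The stretch was not antisense throughout, since the bin 10162–10261 had 36.7% in BX2Θ and 38.3% in BX2*.

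Single 5′ ends stood out of this background. The strongest was sense position 8767, with 6 reads in BX2OFF, 857 in BX2Θ and 588 in BX2*. This 5′ end supplied 8.04% of all sense reads of the region in BX2Θ and 10.01% in BX2*. Its neighbour 8766 had 0, 136 and 83 reads. The 50 positions on either side of 8767 averaged 4.45 reads in BX2Θ and 2.08 in BX2*, so both 5′ ends rose far above their surroundings.

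Other sense maxima were shared at lower levels. Position 9636 had 1 read in BX2OFF, 225 in BX2Θ and 99 in BX2*. Position 8417 had 0.276, 41.8 and 16.8 rpm, and position 9278 had 1, 141 and 74 reads. At 7215 the reads were 1, 128 and 97. Each of these was high in both active libraries and at a single read, worth 0.276 rpm, in BX2OFF.

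On the antisense strand position 9426 led, with 2 reads in BX2OFF, 159 in BX2Θ and 332 in BX2*. It was the highest antisense position of both active libraries. Position 8780 had 7, 116 and 62 reads, the most on this strand in BX2OFF. Position 7645 had 1, 84 and 93, and 7638 beside it had 0, 77 and 34. The 10 highest positions together held 14.6% of antisense reads in BX2Θ and 25.5% in BX2*, against 20.9% and 25.9% for the sense strand, so the antisense profile was more concentrated in BX2*.

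A few 5′ ends were high in 1 active library and low in the other. Each was named because it was among the 5 highest of its strand in the library where it was high. The ratios given for them, here and on the antisense strand, may be too large for that reason. Their intervals do not allow for this choice. Sense position 8589 had 1 read in BX2OFF, 11 in BX2Θ and 318 in BX2*, a level 29.5 times higher in BX2* than in BX2Θ (16.3 to 53.4). The position before it, 8588, went the other way, with 23 reads in BX2Θ and 3 in BX2*. Sense position 7911 had 191 reads in BX2Θ and 20 in BX2*, 9.36 times higher in BX2Θ (5.93 to 14.8), while 7910 had 9 and 26.

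Antisense position 8110 had 24 reads in BX2Θ and 168 in BX2*, and was 7.14 times higher in BX2* (4.67 to 10.9). At 8794 the reads were 33 and 153, 4.73 times higher in BX2* (3.26 to 6.88). The reverse held at 8929, with 96 and 18 reads and a level 5.23 times higher in BX2Θ (3.17 to 8.60). The positions up to 2 nt away from these 3 antisense ends had at most 22 reads in either library. The highest of them, 8795 beside 8794, also differed, with 2 reads in BX2Θ and 22 in BX2*. Whether PCR copies of single molecules contribute to such positions was not tested.

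Most of the signal nonetheless fell on 5′ ends used by both. On the sense strand 768 positions were occupied in BX2Θ and BX2*, which is 61.3% of those of BX2Θ and 77.7% of those of BX2*, and they carried 89.7% and 93.6% of the reads. On the antisense strand 626 positions were shared, 59.1% and 71.3% of each library's positions, with 83.5% and 90.3% of the reads. The same shares were not computed over all of P(lacW), so they do not show whether this overlap is particular to the region.

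Between the active states the region was higher in BX2Θ. Its level was 1.58 times that in BX2* (1.54 to 1.62), 1.78 times on the sense strand (1.72 to 1.83) and 1.30 times on the antisense strand (1.25 to 1.35). The ratio was 2.07 in the 5′ part (2.02 to 2.11) and 1.45 in the middle part (1.42 to 1.48), so the 3′ region lay between both. Scaling to genome-matched reads lowered every ratio of BX2Θ to BX2* by 0.16 on the log2 scale, and that of the 3′ region became 1.41.

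Of the 71 strand bins with at least 20 reads in both libraries together, 25 were at least 2-fold higher in BX2Θ and 0 at least 2-fold lower. Over all of P(lacW) the share of bins past this fold was 39.5%, all of them higher in BX2Θ, and it was 35.2% in the 3′ region. The median ratio was 1.80 in the region and 1.80 over all bins. All bins pool unlike parts, since the share was 66.2% in the 5′ part (median ratio 2.29) and 15.7% in the middle part (1.51). The region lay between both. BX2Θ had the higher level in 63 of the 71 bins.

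**Figure D3:**
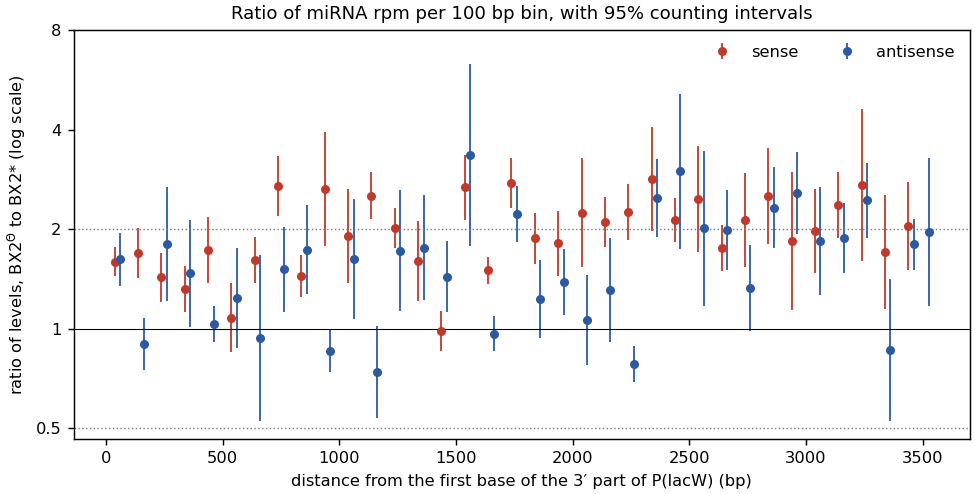
Ratio of the miRNA rpm level in BX2Θ to that in BX2* (vertical axis, log scale) per 100 bp bin and strand along the 3′ region (horizontal axis, distance from its first base in bp), with 95% counting intervals, a solid line at equal levels and dotted lines at 2-fold. The ratios run from 0.741 to 3.35, and the bins below 1 are mostly antisense.

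The 3 largest ratios were found at 8662–8761 antisense, with 41 reads in BX2Θ and 12 in BX2* (3.35 times, 1.78 to 6.30), at 9562–9661 antisense, with 52 and 17 reads (3.0 times, 1.74 to 5.15), and at 9462–9561 sense, with 113 and 39 reads (2.84 times, 1.98 to 4.08). The 3 smallest were all antisense. The bin 8262–8361 had 65 and 86 reads (0.741, 0.537 to 1.02), an interval that includes equal levels. The bin 9362–9461 had 458 and 574 reads (0.782, 0.691 to 0.884), of which 159 and 332 came from position 9426. The bin 8062–8161 had 333 and 382 (0.854, 0.737 to 0.989), of which 24 and 168 came from position 8110.

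The ping-pong signature was counted from pairs of 5′ ends that both lay in the region, a pair of positions giving the smaller of its 2 read numbers. In BX2* the 10 nt overlap had the most pairs of all overlaps from 1 to 26 nt, 666 against a mean of 546 (z = 2.62), followed by 20 nt (z = 1.35). In BX2Θ it had 1165 pairs against a mean of 1019 (z = 1.43) and came behind 15 nt, with 1256 pairs (z = 2.32). BX2OFF had 2 pairs at 10 nt, too few to rank. The 19 nt overlap, that of a duplex of 21 nt siRNAs, had z-scores of 0.82 in BX2Θ and 0.41 in BX2*.

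The position tables of this experiment hold 18–29 nt reads together, so pairs of piRNAs and of shorter RNAs cannot be separated. The 10 nt excess depended on how pairs were counted. With each pair of positions counted once, whatever its reads, the z-scores were 0.16 in BX2Θ and 0.04 in BX2*, and when the reads of a pair were multiplied they became 0.08 and 0.82.

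**Figure D4:**
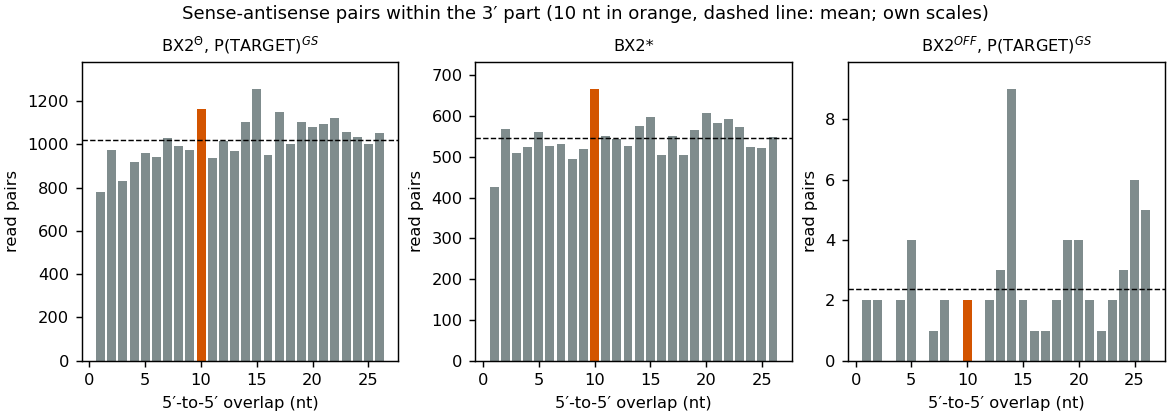
Number of sense-antisense read pairs (vertical axes, own scale in each panel) by the overlap of their 5′ ends in nt (horizontal axes) within the 3′ region, in 1 library per panel; 10 nt is in orange and the dashed line is the mean over 1 to 26 nt. The 10 nt bar is the highest in BX2* (666 pairs), the next after 15 nt in BX2Θ (1165 and 1256 pairs) and holds 2 pairs in BX2OFF.

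The pairs were spread over many positions. In BX2* the largest 10 nt pairs were sense 7322 with antisense 7331 (40 pairs, 6.01% of all), 8589 with 8598 (30) and 9444 with 9453 (25). In BX2Θ they were 8917 with 8926 (30), the first base of the region with 7171 (28) and 7322 with 7331 (27), so that 1 of these partners was common to both. The sense end 8589, at 318 reads in BX2*, thus had an antisense partner at 10 nt with 30 reads there and with 7 in BX2Θ.

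The strongest 5′ end of each strand in the active libraries had at most 1 read at its 10 nt partner position. The antisense position at 10 nt from sense 8767 had 0 reads in BX2OFF, 1 in BX2Θ and 0 in BX2*, and the sense position at 10 nt from antisense 9426 had 0 in all 3 libraries. Sense 8766 and antisense 8780 did have reads at their 10 nt partner positions. These were 24 in BX2Θ and 6 in BX2* for 8766, and 22 and 10 for 8780. With each other, 8766 and 8780 gave 116 of the 15 nt pairs in BX2Θ (9.24%) and 62 in BX2* (10.4%). Sense 8767 with the same antisense end gave 116 pairs at 14 nt in BX2Θ, 62 in BX2* and 6 of the 9 in BX2OFF.

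Without the reporter, BX2OFF ovaries held few reads of the region at either temperature. The 23–29 nt reads numbered 120, 106 and 101 in the 25°C libraries and 106, 159 and 107 in the 29°C libraries. Per 1000000 genome-matched reads the levels were 3.65, 3.31 and 3.22 at 25°C (mean 3.39 ± 0.225, SD, n = 3) and 3.37, 4.36 and 3.97 at 29°C (mean 3.90 ± 0.501, SD, n = 3). The groups overlapped, and the difference of 0.506 gave p = 0.2 in an exact two-sided permutation test, whose smallest p with 3 libraries against 3 is 0.1. Scaled to miRNA reads the groups no longer overlapped, at 14.8, 14.2 and 13.98 rpm against 15.6, 18.8 and 16.8 rpm (exact permutation p = 0.1). The labels do not say whether these libraries come from separate cultures, so p-values measure the spread between libraries, which may be technical.

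For the strand balance and the share of P(lacW) reads the groups did not overlap, but the design cannot give a p below 0.1. The antisense share was 46.7%, 39.6% and 48.5% at 25°C and 50.9%, 51.6% and 57.0% at 29°C, a difference of 8.24 points (exact permutation p = 0.1), or 6.83 points when occupied positions were counted (exact permutation p = 0.3). In the rest of P(lacW) it was 65.3%, 51.6% and 56.1% at the lower temperature, and 67.7%, 61.6% and 71.3% at the higher one. Of all P(lacW) reads the region held 35.7%, 32.6% and 27.2% in the 25°C libraries and 35.9%, 36.3% and 39.5% in the 29°C libraries, a difference of 5.41 points (exact permutation p = 0.1). Without replicate 3 at 25°C it was 3.07 points (exact permutation p = 0.2), and by occupied positions 2.13 points (exact permutation p = 0.5).

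**Figure D5:**
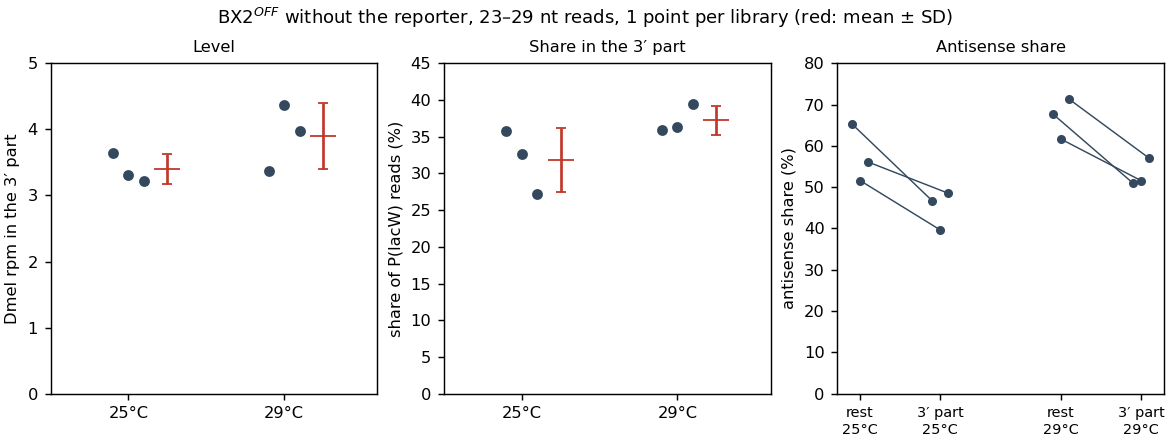
The 3′ region in the 6 BX2OFF libraries without the reporter, 23–29 nt reads, 1 point per library: level in reads per 1000000 genome-matched reads, share of P(lacW) reads in percent (both with the mean ± SD in red) and antisense share in percent, where lines join the rest of P(lacW) to the 3′ region of the same library. Levels lie between 3.22 and 4.36, and all 6 lines of the antisense share go down.

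The region was less antisense than the rest of P(lacW) in 6 of 6 libraries, by 13.2 points on average (SD 4.15, exact two-sided sign-flip permutation p = 0.031, the smallest that 6 libraries allow), a contrast that was added after the values had been seen. Counted as occupied positions the difference was −7.70 points (exact p = 0.0625). In the first experiment the same difference was +9.18 points in BX2OFF with the reporter, −10.7 in BX2Θ and −0.67 in BX2*. The rest pools the middle and 5′ parts, which were unlike in the 6 libraries. The middle part was 70.3%, 60.9% and 61.9% antisense at 25°C and 80.2%, 70.5% and 72.5% at 29°C. The 5′ part was 60%, 37.2% and 39.1% antisense at 25°C and 47.9%, 42.7% and 69.4% at 29°C. Against the 5′ part alone, the 3′ region was thus more antisense in some libraries and less in others. Read density per kb in the region was below that of the middle part in 4 of the 6 libraries of the second experiment and above it in 2 (mean difference −0.226 reads per 1000000 genome-matched reads, exact sign-flip permutation p = 0.156).

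No 500 bp window of the region passed the test for a difference between temperatures. limma, on log2 of the level plus 0.1, tested 43 windows over all of P(lacW), and 2.33% of them passed an adjusted p of 0.05, whereas 0 of the 13 windows of the region did and 1 had an unadjusted p under 0.05. The lowest log2 difference was at 9162–9661 sense, with 16, 19 and 12 reads at 25°C and 8, 6 and 3 at 29°C, where the groups did not overlap (log2 −1.10, SE 0.47, limma adjusted p = 0.670). The highest was at 8662–9161 antisense, with 9, 0 and 6 reads against 7, 28 and 11 (log2 1.24, SE 0.60, limma adjusted p = 0.670). The median log2 difference was 0.13 over the windows of the region and −0.13 over all windows.

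The individual 5′ ends of these libraries recurred little. The 6 libraries occupied 153 strand-positions of the region, 130 of them in 1 library and 0 in all 6. Only 3 positions had reads in at least 4 libraries. Sense 7215 had 1, 4 and 3 reads at 25°C and 0, 16 and 10 at 29°C. Antisense 7620 had 1, 2 and 4 against 5, 7 and 0, and antisense 7639 had 4, 4 and 4 against 0, 8 and 0. With 3 libraries per temperature, this rule requires reads at both temperatures, so it cannot find an end confined to 1 of them. Recurrence was not counted over all of P(lacW), so these counts do not show whether 5′ ends recur as little elsewhere.

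Sense position 8883, singled out after its values were seen, had 0 reads in all 3 libraries at 25°C and 6, 10 and 6 at 29°C. Such a pattern, reads in all libraries of 1 temperature and in none of the other, was found at 0.23% of the 434 occupied positions of P(lacW), which is this position alone. It had 0 reads in BX2OFF with the reporter, 51 in BX2Θ and 11 in BX2*. The dominant end of the active states, sense 8767, had 9, 4 and 0 reads at 25°C and 4, 0 and 0 at 29°C.

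The overlap of 5′ ends between BX2OFF without the reporter and the active states was close to that over all of P(lacW). Of the 153 positions, 85.6% were occupied in BX2Θ and 80.4% in BX2*, which is 5.67% and 6.59% of the positions of those libraries. BX2Θ occupied 32.7% and BX2* 26.4% of the 7058 strand-positions that the region has. Over all of P(lacW), 88.5% and 83.6% of the BX2OFF positions were occupied in BX2Θ and BX2*. Occupied positions of the 6 libraries held 3.16 to 4.68 reads each, and 4% to 21.1% of them had 1 read, against 1.62 reads and 62.8% in BX2OFF with the reporter. The maps of the experiments hold different read lengths and carry different marks for how reads were matched. The sources used here do not explain these marks, so the overlaps and the reads per position only stand side by side and were not tested.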

How the data were processed

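Small RNAs of 18–30 nt from dissected ovaries were sequenced from TruSeq libraries. The authors aligned the reads to release 5.49 of the genome with Bowtie (version 2.0.3 of Bowtie2 is named in the submitters' processing notes) and retained 18–29 nt matches carrying 1 mismatch or none. The deposited values are a score, signed by strand, of reads times 1 factor per library: the first experiment was scaled to 1000000 miRNA reads and the second to the smallest genome-matched total. Dividing by the factor gave whole reads (tolerance 0.001) for 100% of values, and the reads summed to the deposited length distribution. The design had assumed values in rpm, so levels were computed from these reads for the tests it names. The position maps hold 18–29 nt reads in the first experiment and 23–29 nt reads in the second. Their library names are marked "uni" and "mul", a difference in matching that the sources used here do not explain. For its maps the paper reports using only 23–29 nt reads with a unique alignment. That accounts neither for the 18–29 nt maps nor for the mark "mul". The 3′ region spans positions 7162 to 10690, the middle part 3634 to 7161 and the 5′ part 1 to 3633. That their numbering is the one of the published transgene was assumed, although the methods give P(lacW) a greater length.

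Genome-matched totals were 16242473 to 18545573 reads in the first experiment and 26932299 to 36450841 in the second, and miRNA totals 3621703 to 3951462 and 6374911 to 8472003, from the study's library annotation. Groups came from the sample labels. Shares have 95% Wilson intervals, and ratios have intervals from the binomial split of their reads. Bins of 100 bp needed 20 reads in both libraries or strands together. Temperatures were compared by exact permutation tests and by limma over windows of 500 bp with at least 6 reads, with Benjamini-Hochberg adjustment. Overlaps were checked on the 42AB cluster, where 10 nt had the highest z-score in all 3 libraries. Alternatives were the other scaling, occupied positions, other bins, overlaps and pair counts, the most abundant positions left out, and each library left out.

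Positions named are the 5 with most reads per strand in BX2Θ and in BX2*, the 3 with most in BX2OFF with the reporter, and those in at least 4 of the 6 libraries of the second experiment; bins named are the 3 largest and smallest ratios. The members, lists and rules were chosen with earlier results of these data known. Python 3.11.15, numpy 2.4.6, scipy 1.17.1, pandas 2.3.3, matplotlib 3.10.9, R 4.3.3 and limma 3.58.1 were used, and the steps were tested on simulated data. No sequence of P(lacW) was used here.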

Additional observations from a re-analysis of the deposited data

How the results depend on the processing

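Of 92 values recomputed under alternatives, 13 of them added after seeing the data, 63 were counted as unchanged. Depending on the result, this meant the same direction and side of the threshold, or a move smaller than the error. For results such as bin counts and profile correlations it meant staying within a set margin. Counting occupied positions in place of reads gave 14.8 for BX2Θ to BX2OFF, 12.0 for BX2* to BX2OFF and 1.24 for BX2Θ to BX2*, antisense shares of 45.8% in BX2Θ and 47.1% in BX2*, and shares of P(lacW) of 31.4% and 31.9%; it gave temperature differences of 6.83 points in antisense share and 2.13 points in the share of P(lacW), turned that of the level to −4.33 positions (exact permutation p = 0.4) and gave −7.70 points for the antisense share against the rest. Genome-matched scaling gave 1.41 for BX2Θ to BX2*. It left 18 strand bins of the region at least 2-fold higher in BX2Θ, in place of 25, and the matching share over all of P(lacW) was not computed. Leaving out the most abundant positions gave 1.62 for that ratio, an antisense share of 36.1% in BX2Θ, and shares of P(lacW) of 26.1% and 28.3% in BX2Θ and BX2*. With bins of 200 bp, of which there are fewer, 10 bins differed, and 18 in BX2Θ and 17 in BX2* had unequal strands. The z-score at 10 nt was 0.083 in BX2Θ and 0.817 in BX2* with products of reads, 0.16 and 0.0358 with each pair once (0.126 in BX2OFF, against −0.19), and 1.86 in BX2* with overlaps up to 29 nt; the cause was not tested.

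Leaving out 1 library at a time gave differences between temperatures of 0.276 to 0.773 in level, 5.58 to 10.03 points in antisense share and 3.07 to 7.36 points in the share of P(lacW). The density against the middle stretch ranged from −0.286 to −0.0883. The antisense share against the rest ranged from −14.4 to −12.1 points, each with p = 0.0625, the smallest that 5 libraries allow in this exact permutation test. The windows of the region called by limma stayed at 0 to 0. No paired analysis was possible because the labels carry no replicate numbers. Between 101 and 159 reads per library limit the second experiment, and 252 reads limit BX2OFF with the reporter.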
